A study of Mus musculus with 8 samples.

Results

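The 10 transcripts described here are the oocyte Nlrp genes outside the subcortical maternal complex, namely Nlrp14, Nlrp2, Nlrp4a, Nlrp4b, Nlrp4c, Nlrp4e, Nlrp4f, Nlrp9a, Nlrp9b and Nlrp9c. They were taken by symbol from a table of 25574 mouse genes, by a rule that uses no measured value, and all 10 were found and were above 0 in all 8 libraries. The libraries hold RNA of oocytes at nuclear envelope breakdown (NEBD), the start of meiotic maturation, separated on a sucrose gradient by the ribosomes bound to it. Of 10 gradient fractions, fractions 2 to 5 were pooled as the non-polysomal dataset (NP, 4 libraries) and fractions 6 to 10, which hold the messages carrying several ribosomes, as the polysomal dataset (P, 4 libraries). All oocytes came from CD1 mice aged 8 weeks that had been primed with pregnant mare serum gonadotropin, and no library differs from another in strain, genotype or treatment. Fully grown oocytes were isolated with the meiotic inhibitor IBMX, stripped of surrounding cells, cultured without IBMX for 180 min, and given cycloheximide at 0.1 mg/ml for 10 min to hold ribosomes on their messages. Each profile was made from 200 oocytes. The 4 profiles are biological replicates per the study's methods, and each gave an NP and a P pool, although the sources used here do not give how many animals stood behind a profile or tie the library numbers to profiles.

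NLRP proteins combine a nucleotide-binding NACHT domain with leucine-rich repeats, and the best known of them assemble inflammasomes in immune cells. In mammals, a second set of NLRP genes is expressed mainly in the female germ line, where messages made during oocyte growth are stored and later drawn on for translation in the maturing oocyte and the embryo. Its best studied product, NLRP5 (MATER), is a part of the subcortical maternal complex, a protein assembly that early mouse embryos need for cleavage. Nlrp14 and Nlrp2 are maternal effect genes whose loss in the mother impairs early embryos. The Nlrp4 and Nlrp9 genes arose by duplications in the rodent lineage, and for most of them no separate role in the oocyte is established.

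As paralogs, the members can only be counted apart where their sequences differ, so their sequences are shown first. In the GRCm38 coordinates of the deposited table, 9 of the 10 genes lie on chromosome 7, and Nlrp4f lies on chromosome 13 (chr13:65177111-65205716). Nlrp9c, Nlrp4a and Nlrp9a form one cluster of 253 kb (chr7:26322473-26575615), and Nlrp4e (chr7:23301275-23362270) ends 23.6 kb before Nlrp5. Nlrp14 (chr7:107166990-107198102) stands alone at the far end, 80591 kb from its nearest neighbour among these genes. The coding sequences, read from the GENCODE M21 annotation of the same build, encode between 863 codons (Nlrp4b) and 1046 codons (Nlrp2).

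The Nlrp9 genes are the first close group, and their opening 60 coding bases are given on the coding strand, 5′ to 3′, with the letters that differ from Nlrp9a in capitals. They lie at chr7:26550812-26550871 (plus strand) in Nlrp9a, chr7:20019172-20019231 (plus strand) in Nlrp9b and chr7:26394179-26394238 (minus strand) in Nlrp9c.
Nlrp9a: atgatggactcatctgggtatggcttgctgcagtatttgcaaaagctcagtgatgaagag
Nlrp9b: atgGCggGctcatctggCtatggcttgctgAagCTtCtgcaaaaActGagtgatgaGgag
Nlrp9c: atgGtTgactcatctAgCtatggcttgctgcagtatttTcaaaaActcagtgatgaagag
Nlrp9b differed from Nlrp9a at 11 of these positions and Nlrp9c at 6. Over the whole coding sequence, aligned bases were identical at 87.7% between Nlrp9a and Nlrp9c, 84.2% between Nlrp9a and Nlrp9b, and 82.8% between Nlrp9b and Nlrp9c.

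The Nlrp4 genes include the closest pair, Nlrp4c and Nlrp4e, shown with Nlrp4a in the same way, here with the letters that differ from Nlrp4c in capitals. The stretches, all on the plus strand, are chr7:6060595-6060654 in Nlrp4c, chr7:23301282-23301341 in Nlrp4e and chr7:26444212-26444271 in Nlrp4a.
Nlrp4c: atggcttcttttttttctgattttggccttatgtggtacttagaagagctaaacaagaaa
Nlrp4e: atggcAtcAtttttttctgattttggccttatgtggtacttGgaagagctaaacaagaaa
Nlrp4a: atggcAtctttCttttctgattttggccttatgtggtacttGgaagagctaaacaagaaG
Nlrp4c and Nlrp4e were identical at 93.9% of aligned coding bases, with a longest shared run of 120 bases, against 86.3% for Nlrp4a with Nlrp4c. Nlrp14 and Nlrp2 were far from all others, with 60.6% identity between them.

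These differences set how well the values can be assigned to one gene. At the read length of 150 bases, 9 members had no window of their transcript that occurs unchanged in a transcript of another gene, and Nlrp4e shared 3.40% of its windows with predicted genes. At 50 bases, the shared part was 36.9% for Nlrp4e and 11.9% for Nlrp4c, between 0.835% and 7.08% for Nlrp2, Nlrp4a, Nlrp4f and the Nlrp9 genes, and none for Nlrp14 and Nlrp4b. Values of Nlrp4e and Nlrp4c are therefore the least certain of the 10. In addition, exons of Nlrp2 overlap the predicted gene Gm18757 on the other strand and exons of Nlrp9b overlap Gm18877, and the Nextera libraries do not keep the strand, so their reads cannot be told apart there.

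The values are FPKM, fragments scaled by gene length and by the reads of the library, which the authors computed for each library and did not log-transform. They are shares within a pool, so a higher value in P means a larger part of the polysomal RNA and not a known fraction of that message on ribosomes. With pooled oocytes, fewer contributing cells and less RNA per cell cannot be told apart. From the steps between FPKM values, the scaling number was 1299377 to 7594637 reads for the NP libraries and 2677946 to 4699328 reads for the P libraries. Behind the member values stood 10 to 41045 reads, the fewest for Nlrp4c in P4 and the most for Nlrp14 in P1, and such reads, from amplified cDNA, are not independent molecules. The samples carried oocyte RNA, as 12 of 12 oocyte markers had a mean above 1 FPKM, with a sum of 6294 to 11510 FPKM per NP library and 8277 to 33497 per P library. The 12 granulosa and cumulus cell markers summed to 15.3 to 94.4 FPKM in NP and 2.10 to 64.0 in P, with Foxl2, Amhr2, Inhba, Has2 and Ptx3 listed at 0 in every library. Most of that sum came from Cyp19a1, at up to 75.2 FPKM in NP and 62.6 FPKM in P, and Nr5a2, at up to 61.4 FPKM in NP and 35.9 FPKM in P. Kitl added 10.3 FPKM in P3. In P4, Inha was highest of these markers at 0.759 FPKM, with Cyp19a1 at 0.629 FPKM and Nr5a2 at 0.487 FPKM. Of 12 blood and immune cell markers, 11 were in the table, 8 of them at 0 throughout, and the sum was 7.52 to 45.6 FPKM in NP and 2.06 to 77.5 in P. This sum came nearly all from Csf1r, at up to 31.0 FPKM in NP and 76.8 FPKM in P, and Cd68, at up to 35.9 FPKM in NP. The part of these other markers in the results was not tested.

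All 10 members were detected in every library, and most belonged to the abundant messages of the oocyte. In NP, 7 members had a mean above 50 FPKM, and in P this held for 9 members, among 1847 genes of the table above that level. Together the 10 genes held 0.197% to 0.570% of the summed FPKM of an NP library and 0.509% to 0.822% of that of a P library. Their summed level was 1149 to 2488 FPKM in NP and 2637 to 5120 FPKM in P, and these ranges did not overlap, whereas as shares of the summed FPKM they did, with 0.570% in NP3 against 0.509% in P4.

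**Figure D1:**
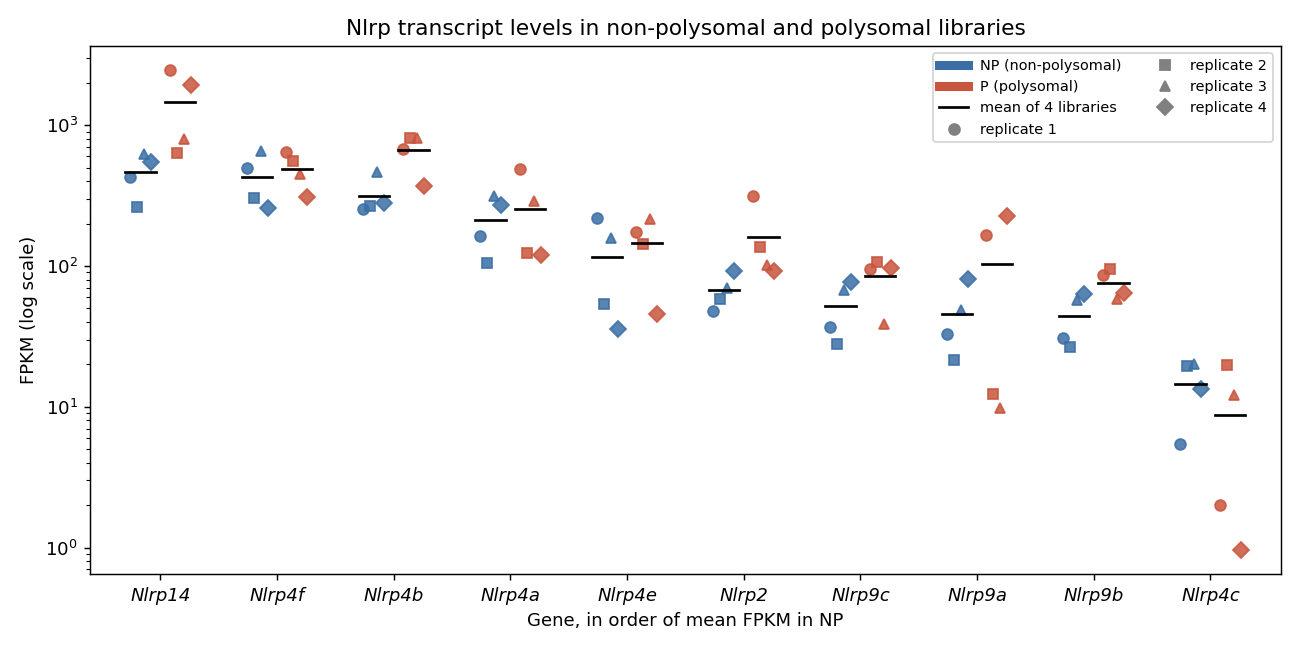
FPKM of the 10 Nlrp transcripts on a log scale, with 1 point per library (marker shape for the replicate number, blue for NP, red for P) and black bars for the means of 4 libraries. By mean, Nlrp14 was highest and Nlrp4c lowest in both datasets, and the P points of Nlrp14 alone lie all above its NP points.

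Nlrp14, the maternal effect gene, had the highest mean level of the 10 in both datasets, 467 ± 159 FPKM in NP and 1455 ± 884 FPKM in P (SD, n = 4). Its level was 427, 264, 629 and 548 FPKM in NP1 to NP4 and 2469, 635, 800.2 and 1918 FPKM in P1 to P4. In FPKM, all P libraries were above all NP libraries, P2 by a narrow margin over NP3, and P1 and P4 stood far above P2 and P3. As a share of the library's summed FPKM (440899 in P2, 436552 in NP3), Nlrp14 was not higher in P2 than in NP3. On that scale its datasets therefore overlapped. Nlrp14 made up 23.0% to 31.9% of the members' summed FPKM in NP, 24.1% and 28.8% in P2 and P3, and 48.2% and 59.1% in P1 and P4. On the log2(FPKM + 1) scale it was higher in P by 1.49 with an SE of 0.59 (95% interval 0.22 to 2.76), a 2.80-fold difference. With limma the unadjusted p was 0.0251 and the p adjusted over 14292 tested genes 0.447, so it did not pass the threshold of 0.1. The unadjusted p passed 0.05 with all 8 libraries but rose to 0.0509 without NP1, 0.0833 without NP2, 0.0782 without P1 and 0.0619 without P4, and the log2 difference stayed between 1.16 and 1.81.

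Nlrp2, the other maternal effect gene of the list, was measured at 48.0, 58.2, 70.2 and 92.4 FPKM in NP1 to NP4 and at 317, 136, 101 and 91.9 FPKM in P1 to P4. P1 was the highest library, and the datasets overlapped only in that P4 lay just below NP4. The log2 difference was 1.11 (95% interval -0.14 to 2.35) with an unadjusted limma p of 0.0771 and an adjusted p of 0.533. Nlrp2 thus had 67.2 ± 19.1 FPKM in NP and 162 ± 105 FPKM in P (SD, n = 4), and P1 alone gave 49.0% of its summed P level.

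Among the Nlrp4 genes, Nlrp4b came nearest to a separation of the datasets. Its FPKM were 253, 268, 466 and 278 in NP1 to NP4 and 675, 811, 806 and 372 in P1 to P4. P1 to P3 were all above the NP libraries, and P4 lay below NP3 but above the other NP libraries. The log2 difference was 1.05 (95% interval -0.06 to 2.17; limma unadjusted p = 0.0620, adjusted p = 0.521), between means of 316 ± 100.4 and 666 ± 206 FPKM (SD, n = 4). Unlike Nlrp14, it was not high in P4, where it had the lowest P value.

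Nlrp4f and Nlrp4a were abundant in both datasets without a clear difference. Nlrp4f, whose product has been linked to the subcortical maternal complex, was at 495, 304, 657 and 259 FPKM in NP1 to NP4 and at 648, 555, 451 and 310.0 FPKM in P1 to P4. Nlrp4a was at 164, 105, 313 and 272 FPKM in NP and at 487, 125, 287 and 120.4 FPKM in P, in the order of the libraries. In both genes the datasets overlapped widely. The log2 differences were 0.24 for Nlrp4f (95% interval -0.90 to 1.39) and 0.13 for Nlrp4a (95% interval -1.21 to 1.46), so differences of more than 2-fold in either direction remain within the interval of Nlrp4a.

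Nlrp4e and Nlrp4c, the most similar pair in sequence, differed in level by an order of magnitude or more in several libraries. Nlrp4e was at 218, 53.5, 159 and 35.4 FPKM in NP1 to NP4 and at 176, 143, 216 and 45.5 FPKM in P1 to P4. Replicate 4 was the lowest library of both datasets, and the datasets overlapped (log2 difference 0.47, 95% interval -1.07 to 2.01). Nlrp4c was the least abundant member by mean, at 5.46, 19.3, 20.1 and 13.3 FPKM in NP and 2.02, 19.7, 12.2 and 0.958 FPKM in P. P1 and P4, the libraries in which Nlrp14 was highest, held the lowest values of Nlrp4c, from 37 and 10 reads, whereas P2 matched the upper NP libraries. It was the only member with a lower fitted level in P (log2 difference -1.16, 95% interval -3.13 to 0.82; limma unadjusted p = 0.230, adjusted p = 0.651). The ratio of Nlrp4c to Nlrp4e within a library was 0.0250 to 0.375 among the NP libraries and 0.0115 to 0.138 among the P libraries.

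The Nlrp9 genes lay close together in NP, and Nlrp9a came apart from Nlrp9b and Nlrp9c in P. Nlrp9b, known from the intestinal epithelium as the sensor of an antiviral inflammasome, was at 30.6, 26.5, 57.0 and 63.6 FPKM in NP1 to NP4 and at 87.0, 94.9, 58.5 and 64.5 FPKM in P1 to P4. Nlrp9c was at 36.9, 27.9, 67.4 and 76.4 FPKM in NP and at 94.5, 106, 38.9 and 97.3 FPKM in P. In each of them 3 P libraries lay above the NP libraries and P3 within their range, and the log2 differences were 0.83 for Nlrp9b (95% interval -0.39 to 2.06) and 0.70 for Nlrp9c (95% interval -0.60 to 1.998). Nlrp9a was at 32.9, 21.5, 48.8 and 80.6 FPKM in NP and at 165, 12.4, 9.83 and 225 FPKM in P. Its P libraries enclosed the whole NP range, P1 and P4 above it and P2 and P3 below it, with a 22.9-fold span between the highest and the lowest P library against 3.76-fold in NP. The mean difference of Nlrp9a was therefore not resolved (log2 difference 0.20, 95% interval -1.88 to 2.28). The log2 difference was -0.39 without P1, -0.54 without P4 and -0.10 without NP2.

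Because the Nlrp9 genes have similar coding sequences, their ratios were also read within each library, where the scaling between libraries does not enter. The ratio of Nlrp9a to Nlrp9c was 0.891, 0.770, 0.724 and 1.05 in NP1 to NP4 and 1.74, 0.116, 0.252 and 2.31 in P1 to P4. The ratio of Nlrp9b to Nlrp9c was 0.829, 0.951, 0.846 and 0.832 in NP and 0.920, 0.892, 1.50 and 0.663 in P. Nlrp9b and Nlrp9c thus kept nearly the same ratio in NP and moved by at most 2.27-fold among the P libraries, while the ratio of Nlrp9a to Nlrp9c spanned 19.9-fold in P and 1.46-fold in NP. The low values of Nlrp9a in P2 and P3 rested on 138 and 152 reads, and the reads behind Nlrp9c there were 2024 and 1027. One limit applies to levels across the Nlrp9 genes, since FPKM of Nlrp9c was divided by an annotated exon length of 5935 bases and that of Nlrp9a by 3479 bases, although the coding transcripts used here are 3216 and 3336 bases long.

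**Figure D2:**
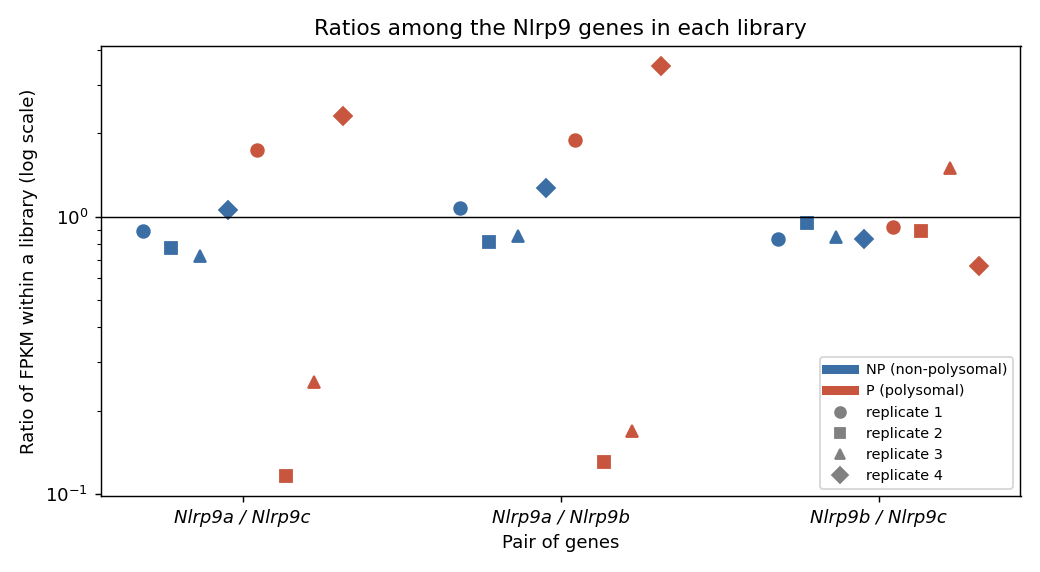
Ratios of FPKM within each library for the 3 pairs of Nlrp9 genes on a log scale, with 1 point per library (blue NP, red P, marker shape for the replicate number) and a line at a ratio of 1. The ratios of Nlrp9a to the other genes lie close to 1 in NP and on both sides of it in P, above it in P1 and P4 and below it in P2 and P3.

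The order of the mean levels in NP was Nlrp14, Nlrp4f, Nlrp4b, Nlrp4a, Nlrp4e, Nlrp2, Nlrp9c, Nlrp9a, Nlrp9b and Nlrp4c. In P the order was Nlrp14, Nlrp4b, Nlrp4f, Nlrp4a, Nlrp2, Nlrp4e, Nlrp9a, Nlrp9c, Nlrp9b and Nlrp4c. Neighbours overlapped in range over the 4 libraries at every step of both orders except the last, where Nlrp9b lay above Nlrp4c in all libraries. At the top, Nlrp14 exceeded Nlrp4f in 1 of 4 NP libraries and Nlrp4b in 2 of 4 P libraries. Among all tested genes, Nlrp14 stood between percentiles 97.0 and 99.8 in every library, Nlrp4f between 97.1 and 99.5 and Nlrp4b between 96.7 and 99.7. Nlrp4c ranged from percentile 45.4 to 78.4 and Nlrp9a from 70.2 to 96.3, the widest spans of the list.

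The libraries in which a member was high also differed between members. P1 was the highest P library for 4 members and P4 the lowest for 6. Relative to its own mean over 8 libraries on the log2(FPKM + 1) scale, P4 lay at 1.37 for Nlrp14 and 2.33 for Nlrp9a but at -2.27 for Nlrp4c, -1.21 for Nlrp4e and -0.76 for Nlrp4a. Nlrp14, Nlrp9a and Nlrp5 shared the pattern of high P1 and P4, and Nlrp4c showed the opposite one. The pattern was not particular to Nlrp genes. Among the maternal complex genes, P1 and P4 were also the highest P libraries for Ooep, Tle6, Khdc3 and Padi6, but not for Zbed3. Among the oocyte markers this held for Zp1, Zp2, Zp3, Gdf9, Figla, Nobox and Npm2. It did not hold for Bmp15, Oosp1, Dazl, Ddx4 and Kit. In the summed FPKM of all genes, too, P1 and P4 (623218 and 637393) stood above P2 and P3 (440899 and 390367), and P4 had values above 0 for 9139 genes against 10287 to 11339 in the other P libraries. Their part in these patterns was not tested.

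**Figure D3:**
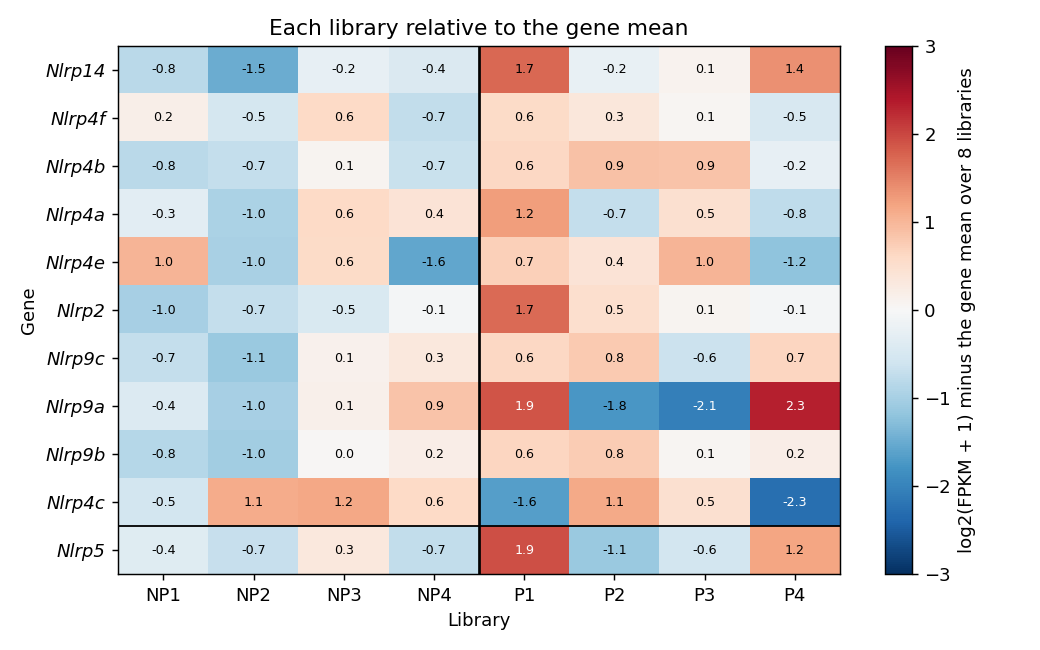
Heat map of log2(FPKM + 1) in each library minus the gene's mean over the 8 libraries, for the 10 members and Nlrp5, with red for values above and blue for values below the mean. The columns P1 and P4 are red for Nlrp14, Nlrp9a and Nlrp5 and blue for Nlrp4c, and NP2 is blue for every gene shown except Nlrp4c.

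Over the list, 9 of 10 members had a positive log2 difference of P over NP and 1 a negative one, with a median of 0.58. Of all 14292 tested genes, 28.6% were positive and the median was -0.39. The tested genes were not matched to the members in level. Of the 12 oocyte markers, 5 were positive and 7 negative, with a median of -0.07. With voom on recovered reads, 0 members passed an adjusted p of 0.1 in limma, where 133 of 11674 genes did (1 higher in P). On FPKM, 0 members passed it in limma, and 0.021% of all genes did (3 genes, all higher in NP). At an unadjusted p under 0.05, 1 member (Nlrp14) was higher in P, where 0.476% of all genes were, and 0 members were higher in NP, where 9.47% of all genes were. In FPKM as deposited, the 4 P libraries lay above the 4 NP libraries for 1 member (Nlrp14) and for 0.357% of all genes. The reverse order held for 0 members and for 5.92% of all genes. The 95% interval included 0 for 9 members, with lower ends between -3.13 and -0.06 and upper ends between 0.82 and 2.35, so differences of those sizes in either direction could not be told from 0 with 4 libraries in each dataset.

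The size of these differences depended on how libraries were brought to a common scale. The deposited scaling left the median of all genes at -0.39, quantile normalization put it at -0.02 and centring each library on its median put it at 0.57. The members' median was 0.58, 0.82 and 1.54 under these scalings, and 9 of 10 members were positive under each, Nlrp4c being the exception, where after median centring 73.0% of all genes were positive. After median centring, 6 members (Nlrp14, Nlrp2, Nlrp4b, Nlrp4f, Nlrp9b and Nlrp9c) had an unadjusted p under 0.05, where 19.0% of all genes did and were higher in P, and 5 members did not overlap, as did 12.1% of all genes with P higher. The lowest adjusted p of a member was then 0.108 in limma, so no member passed 0.1 under any scaling.

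**Figure D4:**
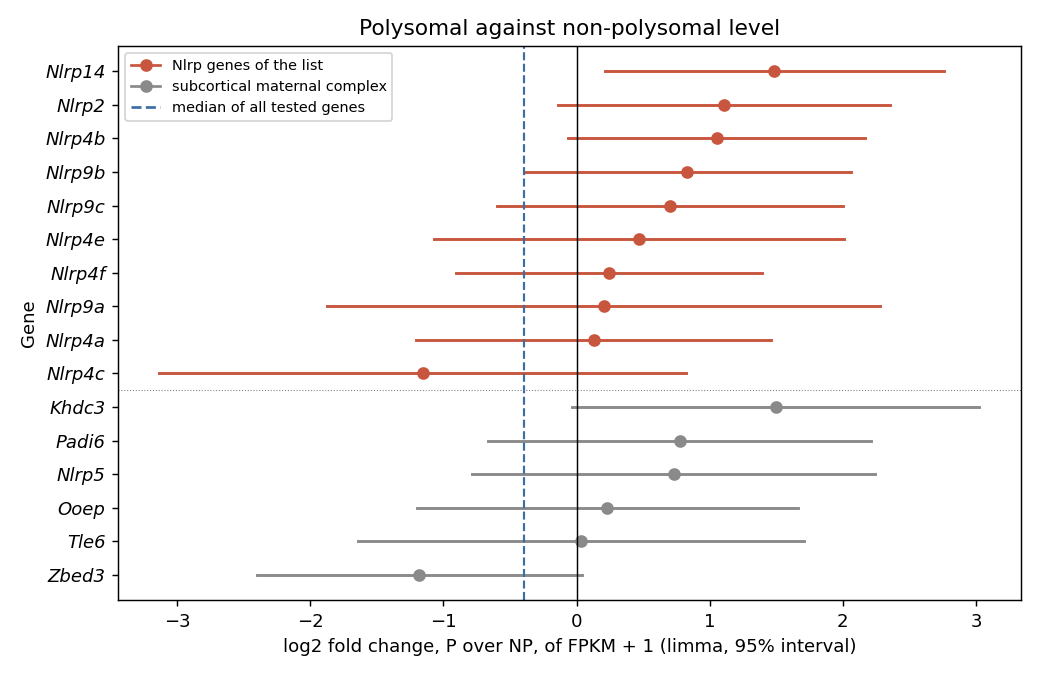
Log2 fold changes of P over NP on the log2(FPKM + 1) scale with 95% intervals from limma (4 libraries in each dataset), for the 10 members (red) and the 6 genes of the subcortical maternal complex (grey), with the median of all tested genes as a dashed line at -0.39. Of the members, Nlrp14 alone has an interval that leaves out 0, and Nlrp4c alone lies below the dashed line.

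The subcortical maternal complex, in which Nlrp5 acts with Ooep, Tle6, Khdc3, Padi6 and Zbed3, was read as the nearest group of oocyte genes. Of these 6 genes, 5 had a positive log2 difference, 0 passed an adjusted p of 0.1 and 0 had an unadjusted p under 0.05, and the median was 0.48 against the members' 0.58. The highest difference was that of Khdc3 at 1.50 (95% interval -0.04 to 3.03) and the lowest that of Zbed3 at -1.18 (95% interval -2.40 to 0.04). Nlrp5 itself was at 73.1, 58.0, 116 and 56.1 FPKM in NP and at 362, 43.0, 63.3 and 214 FPKM in P, with P1 and P4 high and P2 and P3 within or below the NP range. In level, Nlrp14 exceeded Nlrp5 in all 8 libraries, by a log2 ratio of 2.60 ± 0.47 in NP and 3.35 ± 0.49 in P (SD, n = 4).

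Setting each member against Nlrp5 within the same library removes the scaling between libraries. The ratio of Nlrp14 to Nlrp5 was higher in P by 0.76 on the log2 scale, with a 2-sided exact permutation p of 0.0857 over 70 assignments (adjusted p = 0.857 over the 10 ratios tested). The smallest p that this design allows is 0.0286. For the other 9 members the difference lay between -1.89 (Nlrp4c) and 0.38 (Nlrp2), with exact permutation p-values from 0.371 to 0.914. None of the 10 ratios separated the datasets. The ratio of Nlrp4b to Nlrp5, for one, was 1.78, 2.19, 1.998 and 2.29 on the log2 scale in NP1 to NP4 and 0.90, 4.21, 3.65 and 0.80 in P1 to P4, low in the libraries where Nlrp5 was high.

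Most other NLR genes were listed at or near 0 in these oocytes. Of 19 such genes, 6 were listed at 0 in every library, among them Nlrp6 and Nlrc5, and 9 passed the filter of 0.1 FPKM for testing, of which 2 had positive and 7 negative log2 differences and 0 an unadjusted p under 0.05. The highest was Nlrp4g, annotated as a transcribed pseudogene of the Nlrp4 group on chromosome 9, with 135 ± 45.6 FPKM in NP and 141 ± 63.2 FPKM in P (SD, n = 4) and a log2 difference of -0.01. The others with a mean above 1 FPKM were Nod2 and Naip1, sensors of bacterial products, Nlrp12, and the mitochondrial Nlrx1, with means of at most 17.0 FPKM. Nlrp3, the classical inflammasome sensor, was above 0 in NP3 alone, at 0.576 FPKM.

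Among 12 inflammasome partners, Pycard (the adaptor ASC), Casp1, Casp4, Il1b, Gsdmd (the pore-forming gasdermin D) and P2rx7 were listed at 0 in all libraries, and 5 passed the filter for testing. Txnip was abundant, at 434 ± 121 FPKM in NP and 587 ± 399 FPKM in P (SD, n = 4), and overlapped between the datasets. Casp8, a caspase of cell death pathways, was at 10.5, 38.8, 190.1 and 6.02 FPKM in NP and 0.920, 2.70, 0.162 and 0.134 FPKM in P. All its NP libraries were above all P libraries, with a log2 difference of -4.00 (95% interval -6.27 to -1.73; limma unadjusted p = 0.00205, adjusted p = 0.376). Nek7 (log2 difference -2.05, 95% interval -4.13 to 0.02) and Ripk2 (0.52, 95% interval -1.79 to 2.83) did not pass an unadjusted p of 0.05.

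The genes whose pattern over the 8 libraries was most like the mean log2(FPKM + 1) of the 10 members were looked up among 6405 genes with a mean above 10 FPKM. They were Polr2b (Pearson r = 0.954), a subunit of RNA polymerase II, the X-linked Xlr4c (0.926), Eif2s2 (0.892), the beta subunit of translation initiation factor eIF2, G3bp2 (0.887), a stress granule protein, and Spna2 (0.882), the older symbol of an alpha spectrin. The correlations describe 8 libraries that share their preparation. The members' mean, from which the genes were chosen, was lowest in NP2 (6.12) and highest in P1 (7.67).

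In maturing oocytes, translation of stored messages depends on the 3′ end, where a U-rich cytoplasmic polyadenylation element near the polyadenylation hexamer is read by the protein CPEB. The last 100 bases of each member's coding transcript with the longest open reading frame were therefore searched on the transcript's strand. The searched letters were TTTTAT or TTTTAAT, and the hexamers AATAAA and ATTAAA. Shown are 30 bases, from 36 to 7 bases before the transcript's end, for the members with TTTTAT in this stretch and for the Nlrp9 genes, with the matched letters in capitals. The GRCm38 positions are chr7:6105115-6105144 (plus strand) for Nlrp4c, chr13:65177123-65177152 (minus) for Nlrp4f, chr7:26574113-26574142 (plus) for Nlrp9a, chr7:20062905-20062934 (plus) for Nlrp9b and chr7:26364697-26364726 (minus) for Nlrp9c.
Nlrp4c: gttTTTTATTAAAtAATAAAtttaggcatt
Nlrp4f: ttttgtgTTTTATATTAAAgaatagtagtc
Nlrp9a: caagcacattcAATAAAcactaagcatgtg
Nlrp9b: caagcacatttAATAAAcactaagcgtgtt
Nlrp9c: caagcacATTAAATAAAcactaagcatgtt
TTTTAT was found in Nlrp4c and Nlrp4f, as shown, and 47 bases before the end in Nlrp4a, while no member had TTTTAAT. Of 19132 genes searched alike, 17.8% had TTTTAT or TTTTAAT. In Nlrp4c TTTTAT overlaps the hexamer ATTAAA, and in Nlrp9c the hexamers ATTAAA and AATAAA overlap each other. A hexamer was found in 8 members, all but Nlrp14 and Nlrp4a, against 77.5% of all genes. The 3 members with TTTTAT had log2 differences of -1.16 (Nlrp4c), 0.13 (Nlrp4a) and 0.24 (Nlrp4f). The 7 members without it ranged from 0.20 (Nlrp9a) to 1.49 (Nlrp14). The 2 ranges overlap through Nlrp9a alone, and a relation of TTTTAT to the difference was not tested. The ends of the annotated transcripts were not measured in these libraries, and forms of the element other than TTTTAT and TTTTAAT were not searched.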

How the data were processed

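Per the labels and the study's methods, reads were trimmed (Trim Galore 0.4.1) and aligned to GRCm38 (HISAT2 2.0.5). The authors then used Seqmonk to express each gene as FPKM, deposited as 1 linear column per library. Ribosomal RNA was depleted and the cDNA amplified before library preparation. A table of DESeq2 results (the authors' fold changes and p-values) and one of expressed genes (the authors' dataset means and ratios) were not used. Groups and replicate numbers came from the sample titles.

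Members were read by symbol, and the members, gene lists and tests were chosen with earlier results of these data known. Named are all 10 members, the 6 genes of the maternal complex, those of 31 other NLR genes and inflammasome partners with a mean above 1 FPKM, and the 5 genes most like the members. Nlrp3, Nlrp6, Nlrc5 and the partners at 0 were named after their values were seen. Khdc3 was found by an older symbol. P was compared with NP 2-sided on log2(FPKM + 1) with limma 3.58.1 in R 4.3.3 (lmFit, eBayes with a trend) for genes whose mean exceeded 0.1 FPKM in either dataset. P-values were adjusted by Benjamini-Hochberg over all tested genes, and the threshold was 0.1. The script was tested on simulated data. Ratios to Nlrp5 were tested with exact permutation in Python 3.11.15 (scipy 1.17.1, pandas 2.3.3, numpy 2.4.6). Reads were recovered from FPKM steps, with the annotated exon length or, for 8 members, a searched length. Alternatives covered the pseudocount, filter, scaling, trend, replicate block and each library left out, and voom on recovered reads was added after seeing the data. Sequences came from GENCODE M21 and were aligned with Biopython 1.88, and figures were drawn with matplotlib 3.10.9.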

Additional observations from a re-analysis of the deposited data

Results flagged for a closer look

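In 70 groups of 4 libraries, the gap between the highest or lowest library and its neighbour was set against the group's range. Of these groups, 7 exceeded Dixon's 95% critical value for 4 samples, where chance gives about 1 in 20 for independent, normally distributed values. Groups of FPKM with zeros and ratios that share Nlrp5 are not such values, so the 7 groups cannot be read against that rate. Among the members, Nlrp4b in NP3 (466 FPKM) stood above the other NP libraries. The log2 ratio to Nlrp5 in NP4 stood above the other NP libraries for Nlrp9a (0.51) and for Nlrp9b (0.18). Outside the members, Nlrx1 stood apart at 21.3 FPKM in NP4 and at 0.267 FPKM in P1, Nlrp12 at 2.03 FPKM in P3 and Nek7 at 9.42 FPKM in P1.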

How the results depend on the processing

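No member passed an adjusted p of 0.1 in limma in any of the settings run, the lowest adjusted p being 0.108 (median centring). Over all genes, 3 were called with all libraries, 5 with a pseudocount of 0.1 or a filter of 1 FPKM, 1 with a pseudocount of 5 or a replicate block, 20 without the trend, 0 without the filter, after quantile normalization or after median centring, 0 to 5 without single libraries, and 133 with voom on recovered reads. The members with an unadjusted p under 0.05 were 1 with all libraries, 2 without the filter, after quantile normalization, with the replicate block or with voom, 3 without the trend, 6 after median centring, and 0 to 2 without single libraries. These members were all higher in P. Of all genes, 0.476% were so with all libraries, 0.494% without the filter, 2.55% after quantile normalization and 0.812% with the replicate block. That share was 0.651% with voom, 0.707% without the trend, 19.0% after median centring and 0.255% to 1.14% without single libraries. Non-overlapping members numbered 1, then 2 after quantile normalization, 5 after median centring and 1 to 3 without single libraries. The share of all genes that did not overlap with P higher was 0.357% with all libraries and 12.1% after median centring. It was not taken for the other settings, and leaving out a library makes non-overlap easier for every gene. Of 170 recomputed member differences 163 kept their sign. Nlrp9a reversed to -0.052 with voom and spanned -0.54 to 0.92 without single libraries, and Nlrp4a spanned -0.27 to 0.40. Of 110 recomputed ratios to Nlrp5, 17 changed sign. With the median of the maternal complex in place of Nlrp5, the difference became 0.27 for Nlrp4a, 0.61 for Nlrp4e, 0.38 for Nlrp4f, 0.34 for Nlrp9a and 0.84 for Nlrp9c. Without single libraries it spanned -0.83 to 0.49 for Nlrp4e, -0.66 to 0.41 for Nlrp9c, -0.50 to 0.56 for Nlrp9b, -0.094 to 0.86 for Nlrp2 and -0.28 to 0.85 for Nlrp4b. The cause of these changes was not tested.

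Each profile gave an NP and a P pool, but no source used here states that a library number marks the same profile in both datasets. Deviations of same-numbered libraries from the dataset means correlated at 0.0518 to 0.251 over 11374 genes, above 0.1 in 3 of 4 pairs. For unlike numbers the correlations were -0.135 to 0.136. Each P library correlated best with the NP library of its number, whereas NP2 correlated best with P1. The numbers were not taken as pairs in the main tests, and the replicate block served as an alternative. With the replicate block, 1 gene was called, and the 2 members under an unadjusted 0.05 were Nlrp14 and Nlrp4b. In limma with the block, the adjusted p was 0.324 for Nlrp14 (unadjusted p = 0.00911) and 0.397 for Nlrp4b (unadjusted p = 0.0400). Nlrp4b passed 0.05 there but not without the block. Depth limits Nlrp4c most, with 10 reads in P4.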
